A study of Mus musculus with 24 samples.

Results

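Ogg1 encodes the DNA glycosylase that removes 8-oxoguanine, an oxidized form of guanine, as the opening step of base excision repair. The genes described here are Ogg1 and 6 genes of chromosome 6 on either side of it, namely Camk1, Grm7, Gm20387, Wnt5b, Tspan11 and Gm15870, which make 7 of the 55254 genes in the count tables. Ogg1 was included because it is the targeted gene. The other 6 were chosen by their levels in Ogg1-/- and DKO compared with WT in these same libraries, as a list with no threshold, so their differences in those comparisons are given as a description without a test. Nuclear RNA was sequenced from the hippocampus of male C57BL/6N mice aged 6 months, with nuclei sorted by the neuronal protein NeuN into neurons (NeuN+) and mainly glial cells (NeuN-). The 4 genotypes were WT, Mutyh-/-, Ogg1-/- and their double knockout (Mutyh-/- x Ogg1-/-, DKO), each with 3 replicates per cell type, which gave 24 libraries. Mutyh-/- and WT thus carry the normal Ogg1 allele by label, whereas Ogg1-/- and DKO carry the targeted one. The study obtained DKO by crossing the single knockouts and used C57BL/6N mice as WT, and its methods pool nuclei of 3 animals per genotype for RNA, with a different number in the sorting section. Since it is unclear whether a replicate is an animal or part of a pool, the SDs and p-values measure the spread between these samples, which may be technical.

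Genes next to a targeted gene are inherited together with it, so that an allele made in cells of another strain can keep a stretch of that strain's DNA around it through backcrossing. The DNA around Ogg1 was not measured here, and the loss of Ogg1 and the DNA linked to its targeted allele cannot be told apart in Ogg1-/- or DKO. Camk1 encodes a calcium/calmodulin-dependent protein kinase, Grm7 the metabotropic glutamate receptor mGluR7, which restrains transmitter release at presynaptic terminals, and Wnt5b a secreted Wnt ligand linked to signaling without beta-catenin. Tspan11 encodes a tetraspanin, a membrane protein that spans the membrane repeatedly. Gm20387 and Gm15870 are noncoding genes annotated as antisense to Grm7 and Tspan11.

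By position, 3 of the genes form a group at Ogg1 and before it and 3 lie after it. Ogg1 lies on chromosome 6 of GRCm38 from 113326972 to 113335068 on the plus strand, and Camk1 lies on the minus strand from 113334124 to 113343984. The 2 genes overlap tail to tail over 945 bases, of which 232 are exonic in both. Grm7 (110645581 to 111567230, plus strand) ends 1.76 Mb before Ogg1. Gm20387 (110639753 to 110645916, minus strand) overlaps the start of Grm7 by 336 bases, of which 130 are exonic in both. Wnt5b (119432531 to 119544347, minus strand) begins 6.10 Mb after Ogg1. Tspan11 (127887589 to 127953977, plus strand) begins 14.55 Mb after Ogg1, and Gm15870 (127934689 to 127944839, minus strand) lies wholly inside it without a shared exonic base. The strand setting of the authors' counting is not given in the sources used here, so reads of these 3 overlapping pairs may have been assigned to the wrong partner or discarded, and the counts of all 6 genes are uncertain to that extent.

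The sequences just before the start sites of Ogg1 and of 4 genes that were lower or higher in Ogg1-/- and DKO are shown, since both members of the Tspan11 and Gm15870 pair moved together and Camk1 shares its locus with Ogg1. They were read from RefSeq promoters (GRCm38.p6), in which all 7 genes matched by symbol, and were cut at the most upstream annotated start so that no transcribed base of the gene is included. They cover chr6:113326726-113326971 (Ogg1, plus strand), chr6:113343985-113344172 (Camk1, minus strand), chr6:110645262-110645348 (Grm7, plus strand, inside Gm20387), chr6:127887372-127887508 (Tspan11, plus strand) and chr6:127944854-127945103 (Gm15870, minus strand, inside Tspan11). Each is written 5′ to 3′ on the strand of its gene, and capitals mark matches on either strand to a GC box (GGGCGG) or a CCAAT box (CCAAT).
Ogg1: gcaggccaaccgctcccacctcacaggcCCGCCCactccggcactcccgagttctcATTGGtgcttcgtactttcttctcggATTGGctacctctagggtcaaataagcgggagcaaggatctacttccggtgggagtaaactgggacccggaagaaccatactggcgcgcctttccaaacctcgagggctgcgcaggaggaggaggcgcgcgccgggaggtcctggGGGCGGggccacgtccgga
Camk1: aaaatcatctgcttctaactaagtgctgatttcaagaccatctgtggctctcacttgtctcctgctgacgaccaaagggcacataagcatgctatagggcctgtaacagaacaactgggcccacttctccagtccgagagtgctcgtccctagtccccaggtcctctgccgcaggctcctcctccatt
Grm7: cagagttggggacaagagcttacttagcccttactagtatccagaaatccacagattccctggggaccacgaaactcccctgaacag
Tspan11: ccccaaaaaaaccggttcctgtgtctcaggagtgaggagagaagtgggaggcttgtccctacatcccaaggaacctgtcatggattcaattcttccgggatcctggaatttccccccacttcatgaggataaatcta
Gm15870: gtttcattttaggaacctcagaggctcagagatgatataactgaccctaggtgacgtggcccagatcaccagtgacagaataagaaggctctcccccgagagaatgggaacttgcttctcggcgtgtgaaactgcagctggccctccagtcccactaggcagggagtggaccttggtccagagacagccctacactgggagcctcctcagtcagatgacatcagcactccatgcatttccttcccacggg
Ogg1 had 2 GC boxes, 2 CCAAT boxes and 20 CpG dinucleotides in its 246 bases. Over the same 246 bases of all 32851 start sites, 32.2% held a GC box and 33.6% a CCAAT box. In contrast, none of the 3 motifs searched, the TATA box (TATAAA) being the third, was found in the windows of Camk1, Grm7, Tspan11 or Gm15870, which held 4, 1, 2 and 5 CpG in 188, 87, 137 and 250 bases. A match or its absence in these windows is a description of the letters only.

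Total counts ranged from 56.56 to 96.19 M per library (median 70.44 M), and all 7 genes passed the low-count filter in both cell types. Levels are given as CPM, the counts per M of the library total after TMM scaling, a normalization for library composition. A DEG (differentially expressed gene) had an adjusted p under 0.05 in edgeR's quasi-likelihood test and a log2 fold change beyond 0.5 in either direction. The sort was checked with marker genes, of which 8 of 8 neuronal ones were higher in NeuN+ of WT, and 5 of 5 of oligodendrocytes, 6 of 6 of astrocytes and 5 of 5 of microglia in NeuN-. Sequencing lanes differed between NeuN+ and NeuN-, and their effects cannot be told apart from those of cell type. In bulk samples of nuclei, fewer cells of a type and less RNA per cell cannot be told apart either. In NeuN-, the summed level of the 5 oligodendrocyte markers was 6491 to 7239 CPM in WT, 5510 to 6127 in Ogg1-/- and 4913 to 6067 in DKO. The summed level of the 8 neuronal markers in NeuN- was 511.9 to 610.4 CPM in WT, 431.2 to 521.2 in Ogg1-/- and 425.2 to 516.0 in DKO. The summed level of 6 astrocyte markers was 3038 to 3615 CPM in WT, 3547 to 4465 in Ogg1-/- and 3786 to 3946 in DKO of NeuN-. Among the genes of these 3 lists, the astrocyte marker Aldh1l1 alone was a DEG, in Ogg1-/- of NeuN- (log2 fold change 0.52, adjusted p = 0.0483), and the part of these shifts in the NeuN- values below was not tested.

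The targeted gene was examined first. In NeuN+, Ogg1 had 2.54, 3.49 and 3.10 CPM in replicates 1 to 3 of WT and 3.34, 3.16 and 2.95 CPM in the libraries labelled Ogg1-/-. It had 3.03, 2.96 and 3.21 CPM in those labelled DKO, and 2.67, 2.99 and 2.65 CPM in Mutyh-/-. All 4 genotypes overlapped. In NeuN-, Ogg1 had 7.0, 6.90 and 6.21 CPM in WT, 6.81, 7.12 and 6.43 in Ogg1-/- and 7.46, 7.75 and 6.14 in DKO. These groups overlapped as well, as did Mutyh-/- with 6.45, 6.56 and 7.09 CPM. Against WT, the log2 fold change of Ogg1 was 0.05 (SE 0.11, adjusted p = 0.916) in NeuN+ and 0.02 (SE 0.09, adjusted p = 0.970) in NeuN- of Ogg1-/-. In DKO it was 0.01 (SE 0.12, adjusted p = 0.978) and 0.09 (SE 0.09, adjusted p = 0.741). The difference of these effects between cell types was 0.04 for Ogg1-/- (SE 0.15, adjusted p = 0.985) and -0.07 for DKO (SE 0.15, adjusted p = 0.939). The number of reads assigned to Ogg1 therefore did not separate the libraries by their Ogg1 label, and a lower transcript level was not detected. Counts per gene carry no information on exons, and 10.6% of the exonic bases of Ogg1 are shared with Camk1, so they do not check a deletion of part of the gene. The genotypes named below are those given by the labels.

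**Figure D1:**
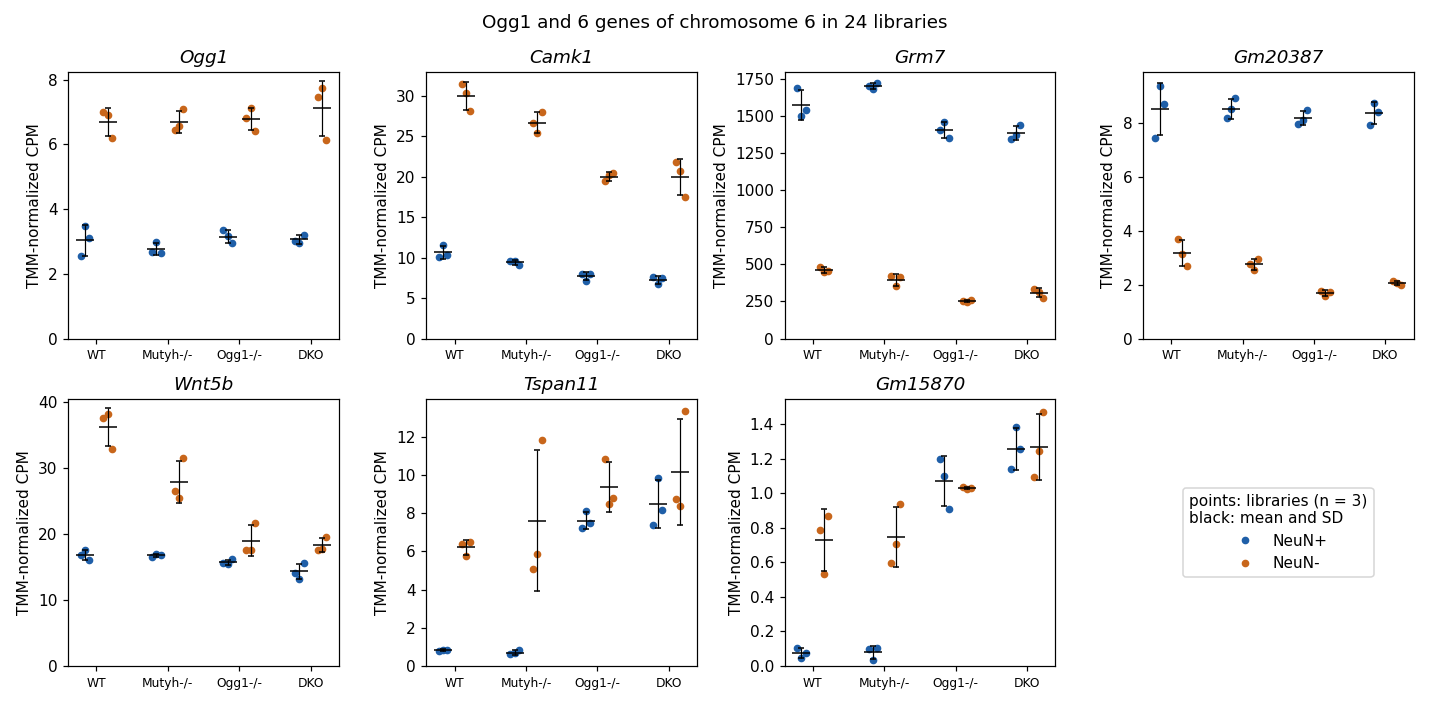
TMM-normalized CPM of the 7 genes in each library (linear axes from 0), by genotype and cell type, with points for the 3 replicates and black marks for mean and SD. Ogg1 overlaps between genotypes, whereas Tspan11 and Gm15870 in NeuN+ are high in all Ogg1-/- and DKO libraries and low in all WT and Mutyh-/- libraries.

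Tspan11 and Gm15870 had the largest differences of the 7 genes, and these were in neurons. In NeuN+, Tspan11 had 0.772, 0.854 and 0.829 CPM in WT and 0.604, 0.649 and 0.819 CPM in Mutyh-/-. It had 7.23, 8.10 and 7.48 CPM in Ogg1-/- and 7.41, 9.88 and 8.15 CPM in DKO. Every library with the targeted Ogg1 allele was thus above every library without it. The log2 fold change against WT was 3.21 (SE 0.13) in Ogg1-/- and 3.37 (SE 0.13) in DKO, or 9.28-fold and 10.3-fold.

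Gm15870, the antisense gene within Tspan11, showed the same order at a lower level. In NeuN+ it had 7, 3 and 5 counts in WT and 6, 2 and 8 counts in Mutyh-/-, against 80, 105 and 81 counts in Ogg1-/- and 81 to 105 counts in DKO. As CPM, this was 0.0752 ± 0.0296 for WT and 0.0788 ± 0.0371 for Mutyh-/-, against 1.07 ± 0.146 for Ogg1-/- and 1.26 ± 0.121 for DKO (SD, n = 3). Against WT, this was a log2 fold change of 3.79 (SE 0.29) in Ogg1-/- and 4.03 (SE 0.29) in DKO, and its size rests on the few counts of WT. The counts of Gm15870 were 12.2% to 16.6% of those of Tspan11 in Ogg1-/- and 14.0% to 15.4% in DKO, compared with 5.26% to 13.5% in WT and 5.56% to 16.2% in Mutyh-/-.

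In NeuN-, Tspan11 and Gm15870 differed less between genotypes. Tspan11 had 6.38, 5.78 and 6.51 CPM in WT, 10.9, 8.47 and 8.82 in Ogg1-/- and 8.75, 8.38 and 13.3 in DKO. Neither of the latter groups overlapped with WT, but in Mutyh-/- the levels were 5.10, 5.88 and 11.9 CPM, so that replicate 3 reached the level of Ogg1-/- and DKO. For Tspan11, the log2 fold change was 0.59 (SE 0.27) in Ogg1-/- and 0.70 (SE 0.27) in DKO, and it was not a DEG. Without replicate 3 of both Mutyh-/- and DKO, it was a DEG in Ogg1-/- (0.60). The summed level of 5 choroid plexus markers was 10.3 to 107.8 CPM in Ogg1-/- and 7.81 to 240.6 CPM in DKO of NeuN-, highest in replicate 3 of each, against 37.3 to 67.3 CPM in WT and at most 24.7 CPM in Mutyh-/-. Tspan11 was highest in replicate 3 of DKO and Mutyh-/- but in replicate 1 of Ogg1-/-, and the part of these markers in these values was not tested. Gm15870 had 0.786, 0.531 and 0.872 CPM in WT, 1.04, 1.03 and 1.03 in Ogg1-/- and 1.09, 1.25 and 1.48 in DKO of NeuN-. Its log2 fold changes were 0.49 (SE 0.22) and 0.78 (SE 0.21), again without a DEG call. In WT, Tspan11 was 6.42-fold lower in NeuN+ than in NeuN- (log2 difference -2.68, SE 0.27, adjusted p = 7.54e-09), whereas its mean levels in Ogg1-/- were 7.60 ± 0.448 CPM in NeuN+ and 9.38 ± 1.29 CPM in NeuN-.

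Camk1, which overlaps Ogg1, was lower in both cell types. In NeuN+ it had 10.1, 11.6 and 10.3 CPM in WT, 7.99, 7.10 and 7.98 in Ogg1-/- and 7.64, 6.73 and 7.51 in DKO. In NeuN- it had 31.5, 30.3 and 28.1 CPM in WT, 19.4, 20.2 and 20.4 in Ogg1-/- and 21.8, 20.7 and 17.5 in DKO. No library of Ogg1-/- or DKO reached the lowest WT library of its cell type. Mutyh-/- lay between, with 9.64, 9.63 and 9.10 CPM in NeuN+ and 26.6, 25.4 and 28.1 CPM in NeuN-. The log2 fold changes were -0.47 (SE 0.08) in NeuN+ and -0.58 (SE 0.08) in NeuN- of Ogg1-/-, and -0.55 (SE 0.08) and -0.58 (SE 0.08) in DKO. The value in NeuN+ of Ogg1-/- was just under the fold limit, so that Camk1 was a DEG in 3 of these 4 comparisons. In DKO of NeuN+, the value was -0.48 without WT replicate 2 and -0.49 without DKO replicate 2, and in DKO of NeuN- -0.50 without DKO replicate 3, all within the fold limit. Leaving out WT replicate 1 or 2 of NeuN- also ended the call in DKO, and without WT replicate 1 of NeuN+ Camk1 was a DEG in Ogg1-/- (-0.51). With Ogg1 itself level, the counts of Camk1 were 331.8% to 395.9% of those of Ogg1 in WT, 224.5% to 270.6% in Ogg1-/- and 227.1% to 252.6% in DKO of NeuN+.

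Grm7 was by far the most abundant of the 7 genes, and its lower level was mainly seen in NeuN-. There it had 485, 452 and 454 CPM in WT, 250, 249 and 260 CPM in Ogg1-/- and 337, 316 and 273 CPM in DKO, without overlap with WT. In Mutyh-/- the values were 424, 351 and 415 CPM. This gave a log2 fold change of -0.87 (SE 0.08) in Ogg1-/- and -0.59 (SE 0.08) in DKO. The DEG call in DKO was lost without any 1 of the 3 WT libraries or without DKO replicate 2, at values of -0.61 to -0.55. In NeuN+, Grm7 ranged from 1498 to 1687 CPM in WT, from 1350 to 1460 in Ogg1-/- and from 1347 to 1440 in DKO, log2 fold changes of -0.16 (SE 0.05) and -0.18 (SE 0.05), which were not DEGs. Grm7 is a neuronal receptor gene and was 4.02-fold higher in NeuN+ than in NeuN- of WT. The ranges of the neuronal marker sums given above were also lower in NeuN- but overlapped with WT. The median log2 fold change of these markers in NeuN- was -0.28 in Ogg1-/- and -0.30 in DKO, and their part in the Grm7 values was not tested.

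Gm20387, which starts head to head with Grm7, followed Grm7 in NeuN-. It had 3.68, 3.12 and 2.70 CPM in WT, 1.76, 1.56 and 1.72 in Ogg1-/- and 2.13, 2.04 and 1.98 in DKO, again without overlap with WT. The log2 fold change was -0.92 (SE 0.13) in Ogg1-/- and -0.63 (SE 0.12) in DKO, and it was a DEG in Ogg1-/- of NeuN- only among the 4 comparisons, but not without Ogg1-/- replicate 2 (-0.87). In NeuN+, the log2 fold changes of -0.06 (SE 0.08) and -0.03 (SE 0.08) were smaller than the spread between replicates. Across the 24 libraries, the counts of Gm20387 stayed between 0.441% and 0.759% of those of Grm7.

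**Figure D2:**
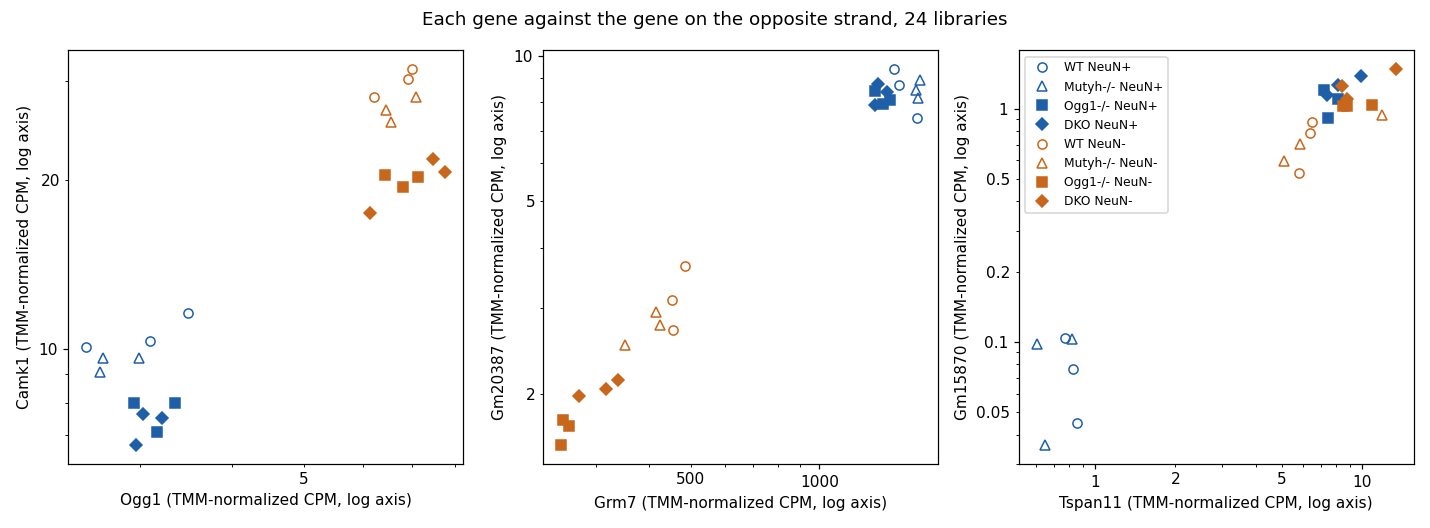
Level of each gene of the 3 overlapping pairs against its partner on the opposite strand in 24 libraries (TMM-normalized CPM, both axes logarithmic), with filled symbols for Ogg1-/- and DKO and open symbols for WT and Mutyh-/-. Tspan11 and Gm15870 of NeuN+ shift together from the lower left to the level of NeuN-, whereas Camk1 shifts downward at a constant level of Ogg1.

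Wnt5b, 6.10 Mb after Ogg1, was lower in NeuN- as well. It had 37.6, 38.2 and 32.8 CPM in WT, 17.6, 17.6 and 21.6 in Ogg1-/- and 17.6, 17.7 and 19.5 in DKO. Mutyh-/- lay between these groups with 26.6, 25.5 and 31.5 CPM, and its highest library was below the lowest of WT. Against WT, Wnt5b of NeuN- had a log2 fold change of -0.94 (SE 0.10) in Ogg1-/- and -0.99 (SE 0.10) in DKO, or 1.91-fold and 1.98-fold lower. In NeuN+, Wnt5b had 16.8 ± 0.817 CPM in WT, against 15.7 ± 0.382 for Ogg1-/- and 14.3 ± 1.19 for DKO, that is log2 fold changes of -0.10 (SE 0.06) and -0.23 (SE 0.06), which were not DEGs. Fold changes of Grm7, Gm20387 and Wnt5b were thus larger in NeuN- and those of Tspan11 and Gm15870 larger in NeuN+, a contrast given without a test because the members were chosen from these comparisons. The effect of Ogg1-/- in NeuN+ minus that in NeuN- was 2.63 (SE 0.35) for Tspan11, 3.32 (SE 0.38) for Gm15870, 0.72 (SE 0.10) for Grm7, 0.87 (SE 0.15) for Gm20387, 0.85 (SE 0.12) for Wnt5b and 0.12 (SE 0.11) for Camk1 on the log2 scale.

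Of the 6 genes besides Ogg1, 2 were DEGs in NeuN+ of Ogg1-/-, where 0.574% of all tested genes were called, and 3 in NeuN+ of DKO, where 0.302% were. In NeuN-, 4 were DEGs in Ogg1-/- (0.229% of all tested genes) and 3 in DKO (0.116% of all tested genes). These counts follow from the way the genes were chosen, and nothing is read from them.

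**Figure D3:**
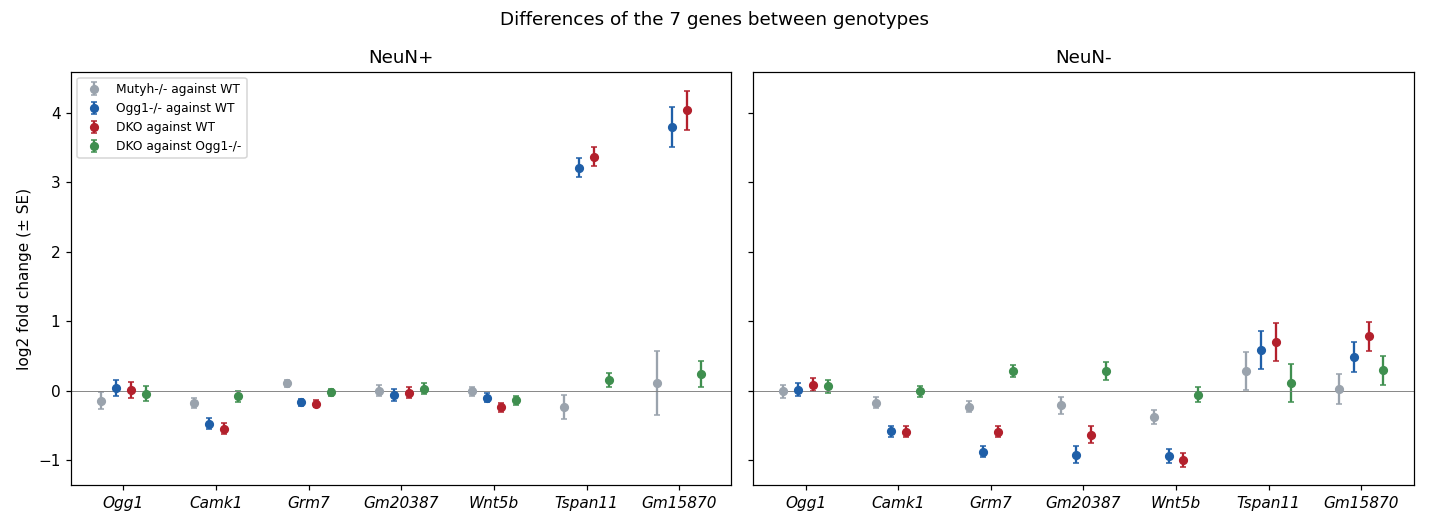
Log2 fold change with SE of the 7 genes in 4 comparisons, NeuN+ on the left and NeuN- on the right. In NeuN+, the values of Tspan11 and Gm15870 in Ogg1-/- and DKO lie between 3.21 and 4.03, and those of Ogg1 lie near 0 in both cell types.

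Next, the 7 genes were examined in comparisons that the choice had not used directly, although these share libraries with it. Mutyh-/- carries the normal Ogg1 allele and shares the WT libraries with the comparisons above. None of the 7 genes was a DEG in Mutyh-/- against WT, where 0.428% of tested genes were called in NeuN+ and 0.273% in NeuN-. In NeuN+, the unadjusted p was under 0.05 for Camk1 and Grm7, among 5633 of all 30132 tested genes. The log2 fold change was -0.17 for Camk1 (SE 0.08, adjusted p = 0.253) and 0.11 for Grm7 (SE 0.05, adjusted p = 0.244). In NeuN-, the unadjusted p was under 0.05 for Camk1, Grm7 and Wnt5b, all of them lower, among 4359 of all 31863 tested genes. Wnt5b had the largest log2 fold change of these 3, -0.38 (SE 0.10, adjusted p = 0.170), followed by -0.22 for Grm7 (SE 0.08, adjusted p = 0.269) and -0.17 for Camk1 (SE 0.08, adjusted p = 0.356). The 3 Mutyh-/- libraries of NeuN- were lower than all 3 WT libraries for each of these 3 genes. The share of all tested genes that separate in this way was not counted, so nothing is read from it.

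DKO was compared with Ogg1-/-, since both carry the targeted Ogg1 allele. The genes besides Ogg1 were chosen by their levels in both of these groups, so a likeness between the groups was partly fixed by the choice. None of the 7 genes was a DEG, with 0.216% of tested genes called in NeuN+ and 0.132% in NeuN-. The Grm7 pair of NeuN- was higher in all 3 DKO libraries than in all 3 Ogg1-/- libraries. The log2 fold change was 0.29 for Grm7 (SE 0.08, adjusted p = 0.710) and 0.29 for Gm20387 (SE 0.13, adjusted p = 0.997), with unadjusted p under 0.05 for both. Such a p was seen in NeuN- for 1383 of all 31863 tested genes. Gm15870 in NeuN- was also higher in every DKO library (0.30, SE 0.21, adjusted p = 0.997). Again, the share of all tested genes that separate in this way was not counted. For Tspan11, Camk1 and Wnt5b the groups overlapped in both cell types. A p that misses the threshold with 3 libraries per group does not show that the levels were equal.

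The level of each gene differed between neurons and glia of WT. At an absolute log2 difference above 1, 42.9% of all tested genes were called between NeuN+ and NeuN- of WT, and 5 of the 7 genes were among them. Grm7 and Gm20387 were higher in NeuN+, with log2 differences of 2.01 (SE 0.08, adjusted p = 1.16e-16) and 1.66 (SE 0.10, adjusted p = 7.03e-13). Camk1, Tspan11 and Gm15870 were higher in NeuN-, with -1.25 (SE 0.08, adjusted p = 1.15e-12), -2.68 (SE 0.27) and -3.02 (SE 0.31, adjusted p = 1.06e-08). Ogg1 and Wnt5b were also higher in NeuN-, but at -0.90 (SE 0.10, adjusted p = 7.06e-08) and -0.86 (SE 0.09, adjusted p = 5.14e-09) they stayed under the fold limit. Divided by exonic length, Grm7 had 267.4 CPM per kb in NeuN+ of WT, followed by Wnt5b at 6.34, Gm20387 at 4.77, Camk1 at 1.78, Ogg1 at 1.39, Tspan11 at 0.154 and Gm15870 at 0.117. In NeuN- of WT, the order was Grm7 at 78.8 CPM per kb, Wnt5b at 13.7, Camk1 at 5.02, Ogg1 at 3.07, Gm20387 at 1.78, Tspan11 at 1.17 and Gm15870 at 1.13. Tspan11 and Gm15870 did not differ beyond their spread in either cell type (SD 0.00781 and 0.0459 in NeuN+, 0.0732 and 0.275 in NeuN-), and the unspliced RNA of nuclei may add reads in proportion to other lengths.

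The genes were then set among all tested genes of chromosome 6. Within 20 Mb of Ogg1, 447 genes were tested in NeuN+ and 474 in NeuN-, the 7 included. In NeuN+, 16 of them were DEGs in Ogg1-/- and 15 in DKO, against 1 in Mutyh-/-. In NeuN-, 16 were DEGs in Ogg1-/- and 14 in DKO, against 0 in Mutyh-/-, where DESeq2's Wald test called 4. For Mutyh-/- of NeuN+, the count was 5 by DESeq2 and 7 without a low-count filter. A fit of only the 2 genotypes compared gave 5 for Mutyh-/- of NeuN+, 27 for Ogg1-/- of NeuN- and 3 for DKO of NeuN-. For these alternative fits the share called over all tested genes is not given, so their counts do not separate a local change from a looser or stricter fit. Leaving out 1 library of the groups compared gave 9 to 12 such DEGs in Ogg1-/- and 9 to 14 in DKO of NeuN+, and 11 to 17 and 8 to 16 in NeuN-. Without Mutyh-/- replicate 3, 11 genes (2.45%) near Ogg1 were called in Mutyh-/- of NeuN+, where 2.73% of all tested genes were then called, and 5 (1.04%) in NeuN-, where 1.35% were. Without the 7 genes, the share called near Ogg1 was 3.18% (14 of 440) in Ogg1-/- and 2.73% (12 of 440) in DKO of NeuN+, and 2.57% (12 of 467) and 2.36% (11 of 467) in NeuN-. Among tested genes not placed on chromosome 6, the share in NeuN+ was 0.542% for Ogg1-/- and 0.255% for DKO, and in NeuN- 0.182% and 0.0761%. On chromosome 6 farther than 20 Mb away, 2 of 1066 genes of NeuN+ were called for Ogg1-/- and 3 for DKO, and 2 and 0 of 1168 genes of NeuN-. Of the 31 genes called in at least 1 of the 4 comparisons, 28 lay after Ogg1, and those before it were Grm7 and Gm20387 alone. Fewer genes were tested before Ogg1 than after it. In NeuN+ of Ogg1-/-, 0 of 117 genes before it were called and 16 of 328 after it (4.88%). In NeuN-, 2 of 114 (1.75%) and 13 of 358 (3.63%) were called. These shares include genes chosen from the same comparisons. Those called before Ogg1 in NeuN- were Grm7 and Gm20387 alone, and those after it include Tspan11 and Gm15870 in NeuN+ and Wnt5b in NeuN-. In NeuN+ of Ogg1-/-, 11 of the 163 tested genes at 10 to 20 Mb after Ogg1 were called. This stretch holds Tspan11 and Gm15870, and 9 of the 11 were other genes.

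**Figure D4:**
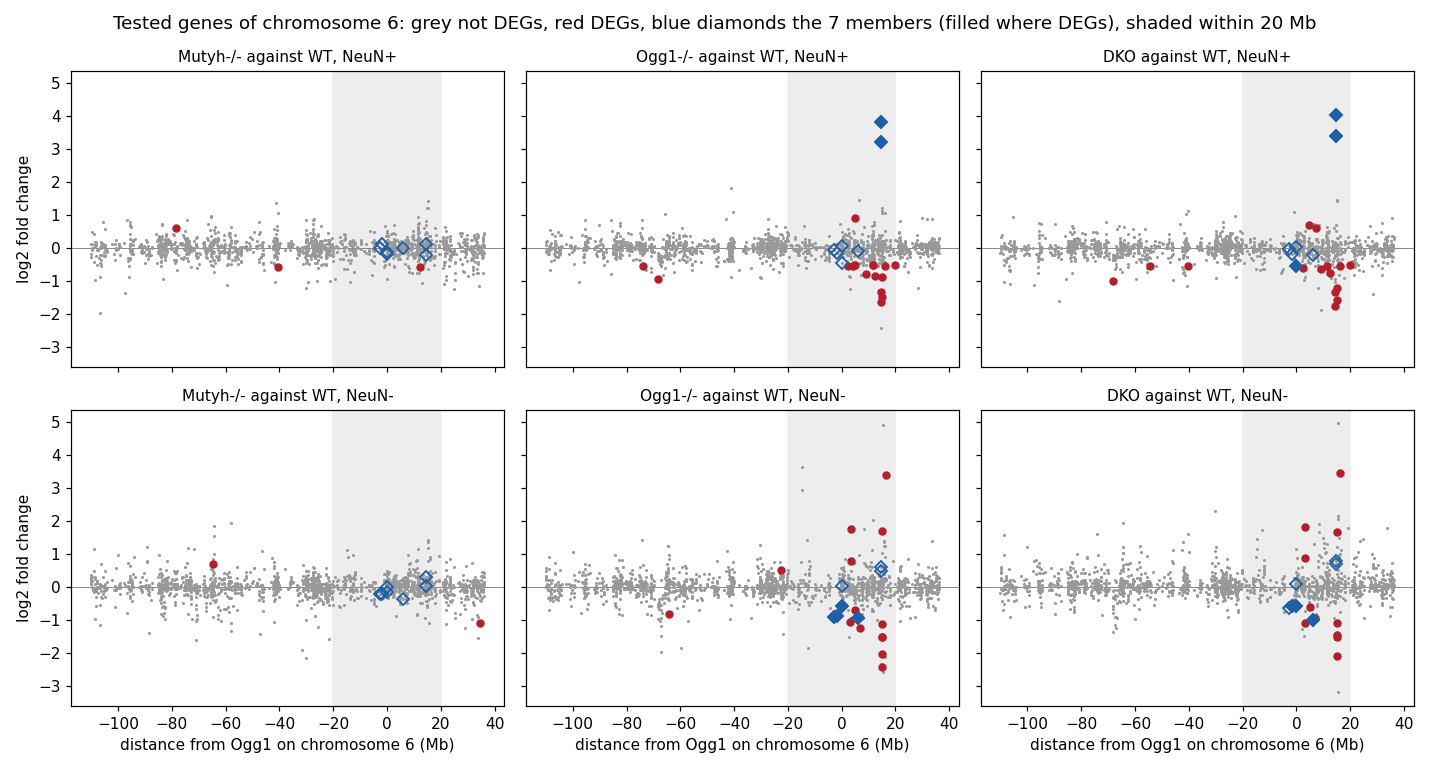
Log2 fold change of every tested gene of chromosome 6 against its distance from Ogg1 in Mb (negative before Ogg1), for 3 genotypes against WT in NeuN+ (top) and NeuN- (bottom). In Ogg1-/- and DKO the DEGs (red, or filled blue for the 7 genes) gather within 20 Mb of Ogg1, mostly after it, where 16, 15, 16 and 14 genes were called, whereas Mutyh-/- had 1 and 0 there.

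**Figure D5:**
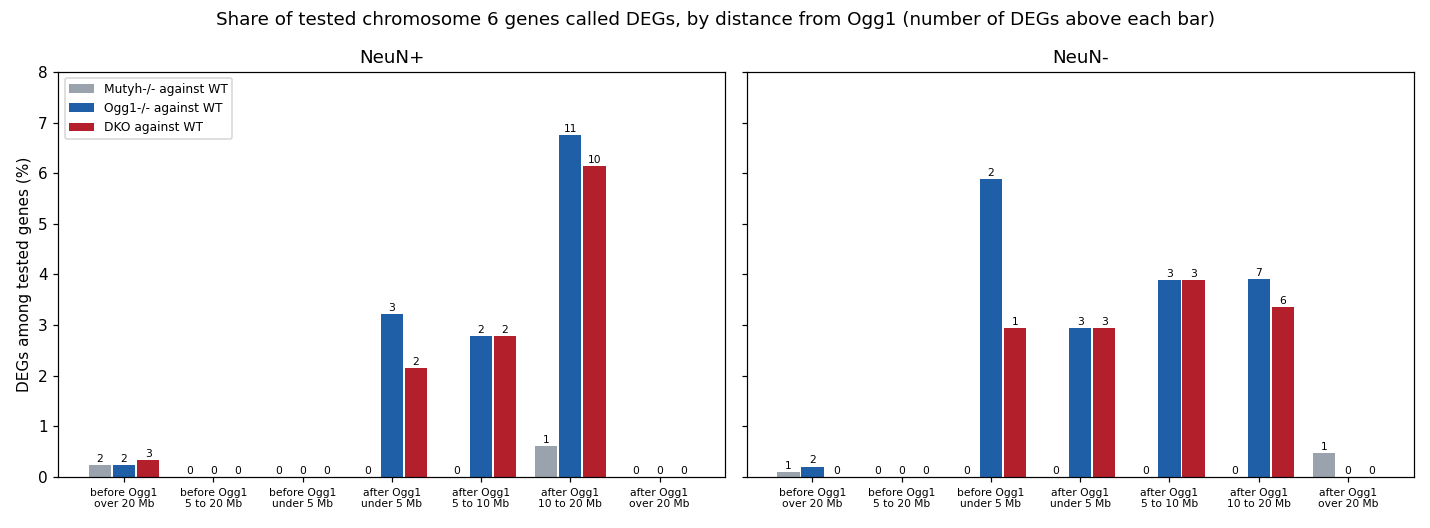
Share of tested chromosome 6 genes called DEGs (percent, bars from 0) by distance before or after Ogg1, with the number of DEGs above each bar. Ogg1 and Camk1, which overlaps it, are in no bar. Farther than 20 Mb before Ogg1, NeuN+ had 2 DEGs in Ogg1-/- and 3 in DKO. In NeuN+, bars of Ogg1-/- and DKO stand after Ogg1 up to 20 Mb, with 11 and 10 DEGs at 10 to 20 Mb, and in NeuN- there are bars within 5 Mb before it as well, which hold Grm7 and, in Ogg1-/-, Gm20387.

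Of 15 annotated genes that overlap Ogg1 or lie within 100 kb of it, 12 were tested in NeuN+ and 13 in NeuN-, and Camk1 alone was called among them in Ogg1-/- and DKO. Brpf1, which encodes a chromatin reader and ends 2.11 kb before Ogg1, had a log2 fold change of -0.05 in NeuN+ and 0.00 in NeuN- of Ogg1-/-. Tada3, a subunit gene of histone acetyltransferase complexes 31.0 kb after Ogg1, had 0.00 and -0.13. Without Camk1, the values of these neighbors in Ogg1-/- ranged from -0.19 to 0.19 in NeuN+ and from -0.27 to 0.38 in NeuN-, and those in DKO from -0.13 to 0.34 and from -0.24 to 1.16. The value of 0.38 belonged to Ttll3, a tubulin ligase-like gene at 54.2 kb, and was the single one of these with an adjusted p under 0.05 (0.0392). Ttll3 was also higher in Mutyh-/-, by 0.51 in NeuN+ (adjusted p = 0.0664) and 0.32 in NeuN- (adjusted p = 0.0957), without a DEG call. Its difference was thus not limited to libraries with the targeted Ogg1 allele. The value of 1.16 belonged to the pseudogene Gm20589 (SE 0.49, adjusted p = 0.369).

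Around Tspan11 the differences went in both directions. The unclassified transcripts 4921513H07Rik and Gm42811 end 109.3 and 76.9 kb before Tspan11 and were lower where Tspan11 was higher. In NeuN+, 4921513H07Rik had 2.76 ± 0.178 CPM in WT, 3.19 ± 0.273 in Mutyh-/-, but 1.09 ± 0.0387 for Ogg1-/- (adjusted p = 5.01e-06) and 1.08 ± 0.0548 for DKO (adjusted p = 1.85e-05). Gm42811 had log2 fold changes of -1.65 and -1.76. After Tspan11, the unclassified transcript Gm44371 at 405.5 kb was lower, and so was a separate cluster of overlapping genes at 421.5 kb and beyond. Its member Tex52 was the single gene called in all 4 comparisons, and in NeuN- it had 18.4 ± 2.06 CPM in WT and 18.0 ± 1.32 in Mutyh-/-, against 6.39 ± 0.857 for Ogg1-/- and 6.36 ± 1.53 for DKO. Its log2 fold change was -1.53 (adjusted p = 4.08e-04) in Ogg1-/- and -1.52 (adjusted p = 0.00152) in DKO of NeuN-. Gm43965, Gm15862 and Gm44596, which lie within or across Tex52, were lower in NeuN- too, so these are not independent.

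Other genes called in at least 2 of the 4 comparisons lay between Ogg1 and this stretch or after it. Zfp248, a zinc finger gene 5.09 Mb after Ogg1, fell in 3 of the 4, with 13.1 ± 0.615 CPM in WT and 9.05 ± 0.238 in Ogg1-/- of NeuN+ (log2 fold change -0.53, adjusted p = 1.83e-04). Depp1, at 3.32 Mb, rose in NeuN- by 1.74 in Ogg1-/- and 1.81 in DKO on the log2 scale. It lies within Rassf4 on the opposite strand, which rose in NeuN- as well (0.78 and 0.86), so these are not independent. Klri1, which encodes a lectin-like receptor of natural killer cells, lies at 16.4 Mb and had 0.127 ± 0.0771 CPM for WT and 0.111 ± 0.0531 for Mutyh-/- in NeuN-, against 1.38 ± 0.174 for Ogg1-/- and 1.42 ± 0.365 for DKO, log2 fold changes of 3.39 and 3.44. Ninj2, an adhesion gene at 6.76 Mb, fell in NeuN- of both (-1.23 and -0.93). Among the 31 genes, 6 were nearer in Mutyh-/- to the knockout in which they were called than to WT on the log2 scale, in every comparison that called them. These were Pzp, Ano2, Gapdh, Tpi1, Gm7292 and 1700101I11Rik, counted after their values were seen, and none of the 7 was among them. Pzp, a protease inhibitor gene, had 2.23 ± 0.152 CPM in WT, 5.02 ± 1.28 in Mutyh-/- and 7.15 ± 1.27 in Ogg1-/- of NeuN-. Ano2, an anoctamin ion channel gene, had 26.6 ± 2.43 CPM in WT, 17.7 ± 2.24 in Mutyh-/- and 14.8 ± 1.78 in Ogg1-/- of NeuN+, and it was the 1 gene called near Ogg1 in Mutyh-/- of that cell type.

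The targeted allele can also be contrasted in libraries that share none with the first comparison, with DKO against Mutyh-/- beside Ogg1-/- against WT. Within 20 Mb of Ogg1, 11 genes were called in DKO against Mutyh-/- of NeuN+, where 0.139% of all tested genes were called, and 12 in NeuN-, where 0.122% were. Of the 14 genes besides the 7 that were called in Ogg1-/- against WT of NeuN+, all 14 had the same direction in DKO against Mutyh-/- and 6 were called again. In NeuN-, it was 12 of 12, with 9 called again, whereas 64.0% and 66.0% of all genes tested there had the same direction. Those 12 include Tex52 and the overlapping Gm43965, Gm15862 and Gm44596, and also Depp1 and Rassf4, which overlap, so they are not independent. Most genes tested there were not called, so their share is no like measure for called genes. Both comparisons also came from the same fit, with a shared estimate of the spread. With the pairs exchanged, Ogg1-/- against Mutyh-/- gave 14 called genes near Ogg1 in NeuN+ (0.485% of all tested genes) and 21 in NeuN- (0.521% of all tested genes), and 12 of 12 and 11 of 11 genes besides the 7 called in DKO against WT had the same direction. For the 7 genes this is no repeat, since their levels in DKO also served to choose them, and their values are a description. In DKO against Mutyh-/- of NeuN+, the log2 fold change was 3.60 for Tspan11 (SE 0.14), 3.92 for Gm15870 (SE 0.28), -0.37 for Camk1 (SE 0.08), -0.30 for Grm7 (SE 0.05), -0.23 for Wnt5b (SE 0.06), -0.03 for Gm20387 (SE 0.08) and 0.15 for Ogg1 (SE 0.12). In NeuN-, it was 0.41 for Tspan11 (SE 0.27), 0.76 for Gm15870 (SE 0.21), -0.42 for Camk1 (SE 0.08), -0.36 for Grm7 (SE 0.08), -0.61 for Wnt5b (SE 0.10), -0.42 for Gm20387 (SE 0.12) and 0.09 for Ogg1 (SE 0.09). Tspan11 and Gm15870 in NeuN+ and Wnt5b in NeuN- passed the limits for a DEG, and the others did not.

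Relatives of the 7 genes were examined as lists. Of 14 genes of the calcium/calmodulin-dependent kinase cascade, Camk1 was the single DEG in any knockout, and the median log2 fold change of the list in NeuN- was -0.19 in Ogg1-/- and -0.17 in DKO, beside 0.00 and 0.01 over all tested genes. Of 7 tested metabotropic glutamate receptors, Grm7 was the single DEG, and the median without it was -0.07 in NeuN- of Ogg1-/-. Of 14 Wnt ligands tested in NeuN-, Wnt5b was the single DEG (median without it 0.13 in Ogg1-/-), and 0 of 18 tested Wnt receptors, co-receptors and polarity partners (frizzleds, Lrp5, Lrp6, Ror1, Ror2, Ryk, Ptk7, Vangl1 and Vangl2) were DEGs in any knockout of NeuN-. Of 29 tetraspanins tested in NeuN+, Tspan11 was the single DEG in Ogg1-/- and DKO. Of 11 DNA glycosylases, which share the repair step of Ogg1, none was a DEG in Ogg1-/- in either cell type. Mutyh was a DEG in Mutyh-/- and DKO, where the libraries labelled as its knockout had more of it, with log2 fold changes of 3.15 and 2.99 in NeuN+.

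The gene most like each of the 7 across the 12 libraries of a cell type was found by the correlation of log2 CPM. In NeuN+, this was Gm15870 for Tspan11 and the reverse (Pearson r = 0.98), Gm43879 on the same chromosome for Grm7 (r = 0.98), Chadl for Gm20387 (r = 0.94), Chchd1 for Camk1 (r = 0.95), Dyrk3 for Ogg1 (r = 0.95) and Wnt1 for Wnt5b (r = 0.88). In NeuN-, Grm7 and Gm20387 were most like each other (r = 0.96), Camk1 was most like Gm44596 of the cluster after Tspan11 (r = 0.98), Wnt5b like Gprin1 (r = 0.95), Ogg1 like Adamts6 (r = 0.91), Tspan11 like Gm44207 (r = 0.96) and Gm15870 like Gm40263 (r = 0.97). The 12 points share 4 genotypes, so that genes which differ between genotypes score high, and each is the highest value over all tested genes.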

How the data were processed

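Nuclear RNA of NeuN+ and NeuN- hippocampal nuclei was sequenced in 24 libraries. The authors assessed the read quality with FastQC, aligned the reads with HISAT2 (2.1.0) to GRCm38 and deposited the number of read pairs per gene from featureCounts as raw counts, 1 table per cell type. The strand setting is not given in the sources used here. Groups came from the library labels.

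Counts were analysed in R 4.3.3 with edgeR 4.0.16. Genes were filtered with filterByExpr, which left 30132 in NeuN+, 31863 in NeuN- and 33523 in the fit of all 24 libraries, scaled with TMM factors, and tested with the quasi-likelihood test and Benjamini-Hochberg adjustment over all of them. Each fit held all 4 genotypes of 1 cell type. Between replicates, the coefficient of biological variation was 0.0823 (NeuN+) and 0.124 (NeuN-), and each library held at least 56.56 M counts. Replicates of a group differed in at least 97.59% of tested genes. Positions and exonic lengths were taken from GENCODE vM21 (GRCm38) by symbol, which matched 96.84% and 96.72% of tested genes, whereas the study counted on Ensembl 102 genes. Distances run between gene bodies.

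The 7 genes and all gene lists were chosen with earlier results of these data known. Genes besides the 7 are named where they overlap or lie within 100 kb of Ogg1, are DEGs within 20 Mb in at least 2 of the 4 comparisons of Ogg1-/- or DKO with WT (up to 15 of smallest summed rank of p, with Gm42811 and Gm44596 named for their place beside Tspan11), correlate most with 1 of the 7 (log2 CPM with a prior count of 2), or explain a count of a list. Rassf4 is named for its overlap with Depp1. Alternatives were DESeq2 1.42.0, other size factors, filters, thresholds and windows, fits of the 2 genotypes compared, a replicate block, and fits without 1 replicate. The scripts were tested on simulated data. DNA around Ogg1, methylation and chromatin were not analysed here.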

Additional observations from a re-analysis of the deposited data

How the results depend on the processing

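For Ogg1, all 75 alternative values in the 6 comparisons with WT stayed without a DEG call, between -0.25 and 0.18 on the log2 scale. For the other 6 genes in Ogg1-/- and DKO against WT, 298 alternative values in 24 comparisons moved by less than 1 SD between replicates, but 17 of them changed a DEG call, in 7 comparisons. With only the 2 genotypes compared, Camk1 and Grm7 in DKO of NeuN- lost the call and Tspan11 in Ogg1-/- of NeuN- gained it (0.59), as did Gm20387 in DKO of NeuN- by DESeq2 (-0.63). Another 11 came from leaving out 1 library, as given above for Camk1, Grm7 and Gm20387, and 2 from leaving out replicate 3 of both Mutyh-/- and DKO (Camk1 in DKO of NeuN- at -0.49, and Tspan11). Calls in Mutyh-/- against WT (148 alternative values) and in DKO against Ogg1-/- (174) did not change. The difference of Ogg1 between NeuN+ and NeuN- of WT passed the fold limit without WT NeuN+ replicate 2, at -1.01. The number of DEGs within 20 Mb of Ogg1 depended more on the settings. With an absolute log2 fold change above 1, it was 5 in Ogg1-/-, 6 in DKO and 0 in Mutyh-/- of NeuN+, and 10, 8 and 0 in NeuN-, and with no fold limit 28 in Ogg1-/- of NeuN+. Windows of 5 and 10 Mb gave 3 and 5 DEGs in Ogg1-/-, 3 and 5 in DKO and 0 and 0 in Mutyh-/- of NeuN+, and 6 and 9 in Ogg1-/- and 5 and 8 in DKO of NeuN-. DESeq2 called 5 and 4 genes in Mutyh-/- of NeuN+ and NeuN-, and no low-count filter 7 and 1. A fit of only the 2 genotypes compared, which has fewer samples, gave 5 in Mutyh-/- of NeuN+, and in NeuN- 1 for Mutyh-/-, 27 for Ogg1-/- and 3 for DKO, and the cause of the last 2 values was not tested. The share called over all tested genes is not given for these settings. Fits without 1 replicate gave 9 to 12 DEGs in Ogg1-/-, 9 to 14 in DKO and 0 to 11 in Mutyh-/- of NeuN+, and 11 to 17, 8 to 16 and 0 to 5 in NeuN-. A fit without replicate 3 of both Mutyh-/- and DKO, which had the highest Tspan11 of NeuN-, was chosen after seeing the data. In NeuN- it gave 30 such DEGs in Ogg1-/- (6.25% of the genes tested near Ogg1) and 8 in Mutyh-/- (1.67%). Over all tested genes of that fit, 0.522% were called in Ogg1-/- and 2.26% in Mutyh-/-. Counting overlapping DEGs once, also chosen after seeing the data, gave 15 and 14 places in Ogg1-/- and DKO of NeuN+ and 11 and 10 in NeuN-.

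With the replicate block, 16 genes were called in Ogg1-/-, 16 in DKO and 1 in Mutyh-/- of NeuN+, and 17, 15 and 0 in NeuN-. Samples of different genotypes with the same number did not deviate together, with a mean correlation of their deviations of -0.005 in NeuN+ (lowest -0.147) and 0.046 in NeuN- (lowest -0.265), so the numbers were not used as pairs. NeuN+ and NeuN- of 1 genotype with the same number had a mean of 0.112 (0.0107 to 0.292), against -0.0555 (-0.258 to 0.136) for different numbers, and the replicate block left the calls of the 7 genes between NeuN+ and NeuN- of WT as they were.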
